A study of Bos grunniens with 3 samples.

Results

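The genes described here were the type I keratins *KRT14* (ENSBGRG00000012060), *KRT15* (ENSBGRG00000012171) and *KRT17* (ENSBGRG00000011737), which mark the basal layer of the epidermis and the outer root sheath of the hair follicle. They were found by symbol, had 1 row each and made up 3 of the 26924 genes counted. Skin over the scapula of healthy Tianzhu white yak (*Bos grunniens*) of about 2 years of age was made into 10x Genomics 3′ libraries, 1 in anagen (the growth stage of the follicle), 1 in catagen (regression) and 1 in telogen (rest). In each, follicles were pulled out after a digestion with dispase, and their cells were freed with trypsin. The catagen stage was taken from the title and stage label, whereas the protocol text of that library names anagen. The paper names 3 yaks, sampled in anagen and catagen, and gives no map of animals to libraries. It does not describe the telogen library.

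Type I keratins pair with type II keratins to form the intermediate filaments of epithelial cells. *KRT14* pairs with *KRT5* in basal keratinocytes, which sit on the basement membrane and divide, and *KRT1* and *KRT10* take the place of this pair as cells move up and differentiate. *KRT15* is known from basal cells and from the follicle stem cells of the bulge, and *KRT17* from the outer root sheath, the companion layer and wounded or otherwise activated epidermis.

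After cells with fewer than 200 detected genes had been left out, 11987 anagen, 12062 catagen and 14502 telogen cells remained, with a median of 5256, 3350 and 5583.5 unique molecular identifiers (UMIs, 1 per captured transcript) per cell. The lowest UMI total of a cell was 2404 in anagen and 500 in both other libraries. Between 40 and 49 cell barcodes were shared by each pair of libraries. Markers of other cell types were low: *PECAM1* of endothelium reached 3.30 to 8.50 CPM (the usual unit of UMIs of a gene scaled to a common total, in which 100 CPM are 1 UMI per 10000) over the libraries, *COL1A2* of fibroblasts 0.252 to 30.3 CPM and *PTPRC* of leukocytes 0.290 to 0.503 CPM, and *CD52* was at 0. With 1 library per stage there was no replicate, so no p-value is given, and every interval below (exact, 95%) covers counting error only.

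*KRT14*, the basal keratin, was measured at 10602 CPM in anagen (10579.9 to 10624), 11744 CPM in catagen (11715 to 11774) and 20286 CPM in telogen (20258 to 20313). The telogen library was the high one, and the other two lay close together. The log2 ratio was 0.94 for telogen over anagen and 0.79 for telogen over catagen, against 0.15 for catagen over anagen, and the last of these changed sign to −0.11 when libraries were scaled by the median of ratios over genes. *KRT14* UMIs were present in nearly every cell: 1.64% of anagen, 7.97% of catagen and 0.310% of telogen cells had none. Cells of unequal depth were counted here, and at equal depth (given further on) more cells of each library had none. Cells with endothelial markers held *KRT14* UMIs too, so presence was not read as expression.

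*KRT15*, the keratin known from basal and bulge cells, had 294 CPM in anagen (290.4 to 298), 678 CPM in catagen (671 to 685) and 281 CPM in telogen (278 to 284). Here the catagen library stood above the others, by 2.31-fold over anagen (log2 1.21, 1.18 to 1.23) and by 2.41-fold over telogen. Anagen and telogen differed by a log2 ratio of −0.06, which became 0.18 under median-of-ratios scaling.

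*KRT17*, the keratin of the outer sheath and companion layer, had 4989.8 CPM in anagen (4975 to 5005), 3654 CPM in catagen (3638 to 3671) and 6373 CPM in telogen (6358 to 6388). In these summed levels catagen was the low library, with a log2 ratio of −0.45 to anagen. Telogen was the high one, with 0.35 over anagen and 0.80 over catagen. Medians over cells put anagen above telogen, at 22.2 UMIs per 10000 against 18.2, and catagen at 3.62. In catagen 76.1% of *KRT17* UMIs lay in the 10% of cells with most of them, against 55.7% in anagen and 69.9% in telogen.

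In CPM each member had its own order of libraries, whereas under median-of-ratios scaling *KRT14* and *KRT17* shared the order telogen, anagen, catagen. In CPM, at least a 2-fold difference was reached by 1 of the 3 members (*KRT15*) between catagen and anagen, where 7.25% of all genes with at least 50 CPM were that far apart, by 0 of 3 between telogen and anagen (12.2% of genes), and by *KRT15* again between telogen and catagen (17.3% of genes). These calls rested on the scaling. Under median-of-ratios scaling *KRT15* was under 2-fold in both pairs (log2 0.95 and −0.77), while *KRT14* passed for telogen over anagen (1.18) and over catagen (1.29) and *KRT17* for telogen over catagen (1.30). In cells with at least 1000 genes *KRT15* was also just under 2-fold for catagen over anagen (0.98). The median log2 ratio over genes with at least 50 CPM in either library was −0.07, −0.12 and −0.08 for these pairs. These medians do not match the shifts made by median-of-ratios scaling. That scaling lowered *KRT14* for catagen over anagen from 0.15 to −0.11, and a median below 0 would raise it. The changes in calls given for that scaling therefore hold for it and not for every scaling, and the reason was not tested. Stage, animal, library and version of Cell Ranger cannot be told apart in any of them.

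To place the members in the follicle, cells were gated by keratins of other lineages. A cell passed a gate with at least 50 UMIs of its keratins per 10000 UMIs and at least 3 UMIs in all: *KRT1*, *KRT2*, *KRT10* and *KRT77* for suprabasal epidermis, *KRT25*, *KRT27*, *KRT28*, *KRT71* and *KRT73* for the inner root sheath, *KRT34*, *KRT35* and *KRT85* for the hair cortex, and *KRT75* for the companion layer. In anagen, catagen and telogen, 3637, 2821 and 5427 cells passed the suprabasal gate, 350, 230 and 115 the inner root sheath gate, 367, 138 and 102 the hair cortex gate and 71, 167 and 68 the companion gate. Cells past no gate numbered 7445, 8672 and 8766. A like gate for *KRT79*, a keratin of the upper follicle and its ducts, held 3 cells or fewer. *KRT79* cells were therefore taken at 5 UMIs per 10000 and at least 3 UMIs in all, whatever other gate they passed. Shallow cells that reached this share on fewer than 3 UMIs were not among them. The limit was chosen after the data were seen, and *KRT79* cells numbered 223, 209 and 593. Most of these (137, 150 and 508) were also past the suprabasal gate.

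**Figure D1:**
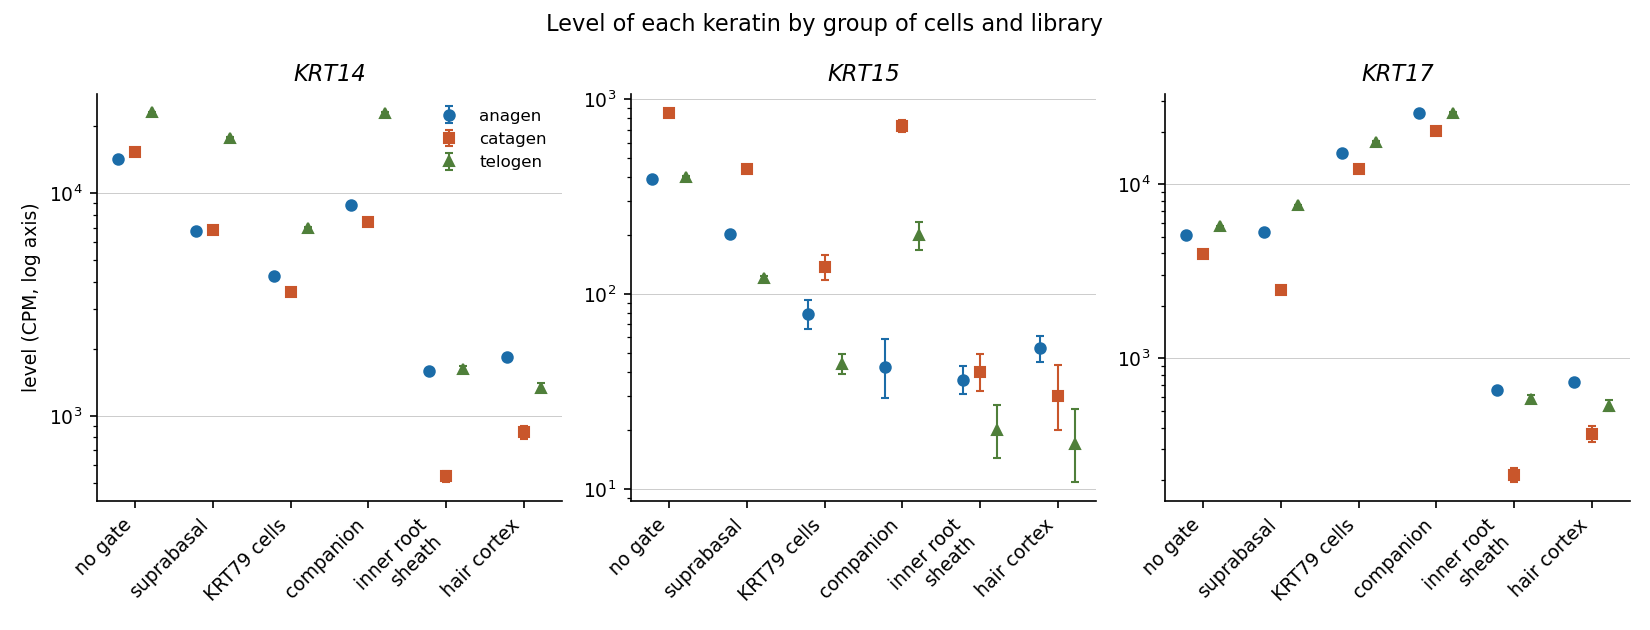
Level of *KRT14*, *KRT15* and *KRT17* (CPM, log axis) in groups of cells (horizontal axis) of the anagen, catagen and telogen libraries; points are levels from summed UMIs and bars are exact 95% Poisson intervals, where larger than the point. All 3 keratins were lowest in inner root sheath and hair cortex cells, except *KRT15* in anagen, which was as low in the companion gate, and *KRT17* was highest in companion cells in each library.

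*KRT14* was higher in cells past no gate than in the 4 gates in anagen and catagen, and in telogen it was level with the companion gate within counting error (log2 ratio −0.02, −0.04 to 0.01). Cells past no gate had 14239 CPM in anagen, 15277.5 CPM in catagen and 23011.5 CPM in telogen. These cells held 77.0%, 81.5% and 66.3% of its UMIs, beside 57.4%, 62.6% and 58.5% of the UMIs of all genes. Suprabasal cells had 6729 CPM, 6787 CPM and 17745.5 CPM, and the anagen and catagen values were close to those of cells with endothelial markers (6587 and 7224 CPM). The suprabasal level was 0.473 and 0.444 times that of cells past no gate in anagen and catagen, against 0.771 times in telogen. Companion cells had 8801, 7447 and 22750.5 CPM, which was 0.618 times the level of cells past no gate in anagen, 0.487 times in catagen and 0.989 times in telogen.

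*KRT15* followed the same split between cells past no gate (389.6, 851 and 401 CPM) and suprabasal cells (203, 437 and 120.4 CPM). The suprabasal level was 0.520 and 0.514 times that of cells past no gate in anagen and catagen, and was lowest relative to it in telogen, at 0.3003 times, the library in which *KRT14* had been least different. The catagen library was above the other two within both groups: catagen over anagen had a log2 ratio of 1.13 (1.10 to 1.15) in cells past no gate and 1.11 (1.06 to 1.16) in suprabasal cells. The catagen suprabasal level lay within the interval of cells with endothelial markers (409 CPM, 253 to 625), which had 87.7 CPM in anagen.

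*KRT17* did not share this split. Cells past no gate had 5136 CPM in anagen, 3959.7 CPM in catagen and 5714 CPM in telogen, and suprabasal cells had 5284, 2460.45 and 7569.8 CPM, which was about equal in anagen, lower in catagen and higher in telogen. The log2 ratio was 0.04, −0.69 and 0.41. With *KRT79* cells left out of the suprabasal cells, 4862, 1909.6 and 5762 CPM remained, and the ratio was −0.08, −1.05 and 0.01. *KRT79* cells past no gate (85, 49 and 78) were kept in that comparison. By medians over cells, suprabasal cells without *KRT79* cells were above cells past no gate in anagen and telogen. They had 29.0, 1.94 and 24.0 UMIs per 10000, against 21.0, 4.31 and 14.9. At a gate of 200 UMIs per 10000 the log2 ratio of summed levels was below 0 in every library, at −0.85, −1.98 and −0.36.

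Inner root sheath cells, which line the growing hair, and cortex cells, which form it, had little of any member. *KRT14* was at 1582, 535 and 1617 CPM in inner root sheath cells and at 1845, 843 and 1339 CPM in cortex cells of anagen, catagen and telogen. *KRT17* was at 653, 214 and 585 CPM and at 727, 367 and 535 CPM in the same cells, and *KRT15* at 36.4, 40.0 and 19.997 CPM and at 52.6, 30.1 and 17.1 CPM. All 3 members were at least 2-fold lower than in cells past no gate in every library, both in inner root sheath cells (10.7% of genes were) and in cortex cells (9.62% of genes were). Over the 12 contrasts of 4 gates and 3 libraries, *KRT14* was at least 2-fold lower in 9, *KRT15* in 8 and *KRT17* in 6, beside 12.6% of such contrasts over all genes. *KRT15* in telogen companion cells lay just outside this limit, at 0.5004 times the level of cells past no gate.

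In droplet data free RNA gives UMIs in cells that do not express a gene, so these levels were set beside those of cells with endothelial markers (at least 3 UMIs over at least 2 of *PECAM1*, *CDH5*, *VWF* and *EMCN*), which should lack keratins. Such cells had 6587, 7224 and 5837 CPM of *KRT14*, 4609, 331 and 4196 CPM of *KRT17* and 87.7, 409 and 170.3 CPM of *KRT15* in 56, 15 and 35 cells. Their median was 7.98, 3.995 and 12.2 *KRT14* UMIs per 10000, so the UMIs were spread unevenly over them. The inner root sheath and cortex levels were below those of endothelial-marker cells for *KRT14* in every library, and for *KRT15* and *KRT17* in every library but for *KRT17* in catagen cortex cells, so no expression was read from them. Other levels were below this mark too: *KRT14* in catagen suprabasal cells and in anagen and catagen *KRT79* cells, and *KRT15* in telogen suprabasal cells, anagen companion cells and the *KRT79* cells of every library. They are given as levels, from which expression by those cells cannot be read with this mark, a summed level over few cells. Medians per cell ranked some of them otherwise. In catagen suprabasal cells the *KRT14* median was 18.8 UMIs per 10000, against 3.995 in endothelial-marker cells. It was 15.2 against 7.98 in anagen *KRT79* cells, but 3.94 against 3.995 in catagen *KRT79* cells. The *KRT15* medians of the cells named were 0, as in endothelial-marker cells. Also below this mark were *KRT17* in the basal-marker cells of anagen and telogen, described further on, and levels in cells with proliferation markers. Of the latter, *KRT17* in catagen, *KRT14* in telogen and *KRT15* in anagen and telogen were above it. The catagen mark of *KRT17* rested on 17 UMIs (193 to 530 CPM), and that of *KRT15* on 21 UMIs (253 to 625 CPM). Within the *KRT17* interval lay catagen cortex cells, at 367 CPM, and catagen proliferation-marker cells, at 482 CPM, so neither could be told from the mark. Within the *KRT15* interval lay catagen suprabasal cells, at 437 CPM. *KRT14* in anagen suprabasal cells (6729 CPM) lay within its mark's interval of 6322 to 6860 CPM. So did *KRT14* in catagen companion cells (7447 CPM, 6507 to 7997) and *KRT15* in telogen companion cells (201 CPM, 126 to 225). These were not told from the mark by summed level. Their *KRT14* medians were higher, at 26.5 against 7.98 and 19.4 against 3.995, and their *KRT15* medians were 0. By medians *KRT17* in basal-marker cells was higher, at 21.5 against 3.51 in anagen and 8.74 against 4.46 in telogen. In proliferation-marker cells the *KRT17* medians were 4.75 and 7.78 in these libraries. Their *KRT14* median was 15.3 against 7.98 in anagen and 3.07 against 3.995 in catagen. The inner root sheath level of *KRT17* was itself 3.06-fold lower in catagen than in anagen.

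The companion gate gave the highest *KRT17* of the 4 gates in each library. Companion cells, a single layer between the inner and outer sheath marked by *KRT75*, had 25608 CPM of *KRT17* in anagen (25260 to 25960), 20303 CPM in catagen (20030 to 20578) and 25600.5 CPM in telogen (25234 to 25971). This was 4.99, 5.13 and 4.48 times the level of cells past no gate, so the excess was of like size although the gate was set without *KRT17*. *KRT17* was the 1 member of 3 at least 2-fold higher in companion cells in all libraries, as 7.3% of genes were, and 0 of 3 were at least 2-fold lower in all, as 6.29% of genes were.

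*KRT15* in companion cells differed between libraries more than in the other 3 gates, with 42.2 CPM in anagen (29.3 to 59.0), 732 CPM in catagen (681 to 785) and 201 CPM in telogen (169 to 236). The telogen level lay within the interval of endothelial-marker cells (126 to 225 CPM), and the anagen level was below theirs. At least 3 *KRT15* UMIs were held by 34 of 167 companion cells in catagen, against 2 of 71 in anagen and 10 of 68 in telogen. The 34 cells were shallower (a median of 2695.5 UMIs against 6502), had more *KRT14* (14230.0 against 6517 CPM) than the other 133 and less *KRT17* (11087 against 21565 CPM), and 1 UMI of *KRT7*, which the other 133 had at 552 CPM. Whether they were companion cells or cells of another kind with some *KRT75* was not tested.

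*KRT79* cells were the other group with high *KRT17*, at 15187.5 CPM in anagen, 12207 CPM in catagen and 17511 CPM in telogen. This was 2.96, 3.08 and 3.06 times the level of cells past no gate. In the same cells *KRT14* was at 4246, 3582 and 6945 CPM and *KRT15* at 79.0, 138 and 43.9 CPM. *KRT17* was thus at least 2-fold higher than in cells past no gate in all 3 libraries, as 6.99% of genes were, while *KRT14* and *KRT15* were at least 2-fold lower in all, as 4.46% of genes were. In suprabasal cells no member was 2-fold lower in all 3 libraries (4.22% of genes were).

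**Figure D2:**
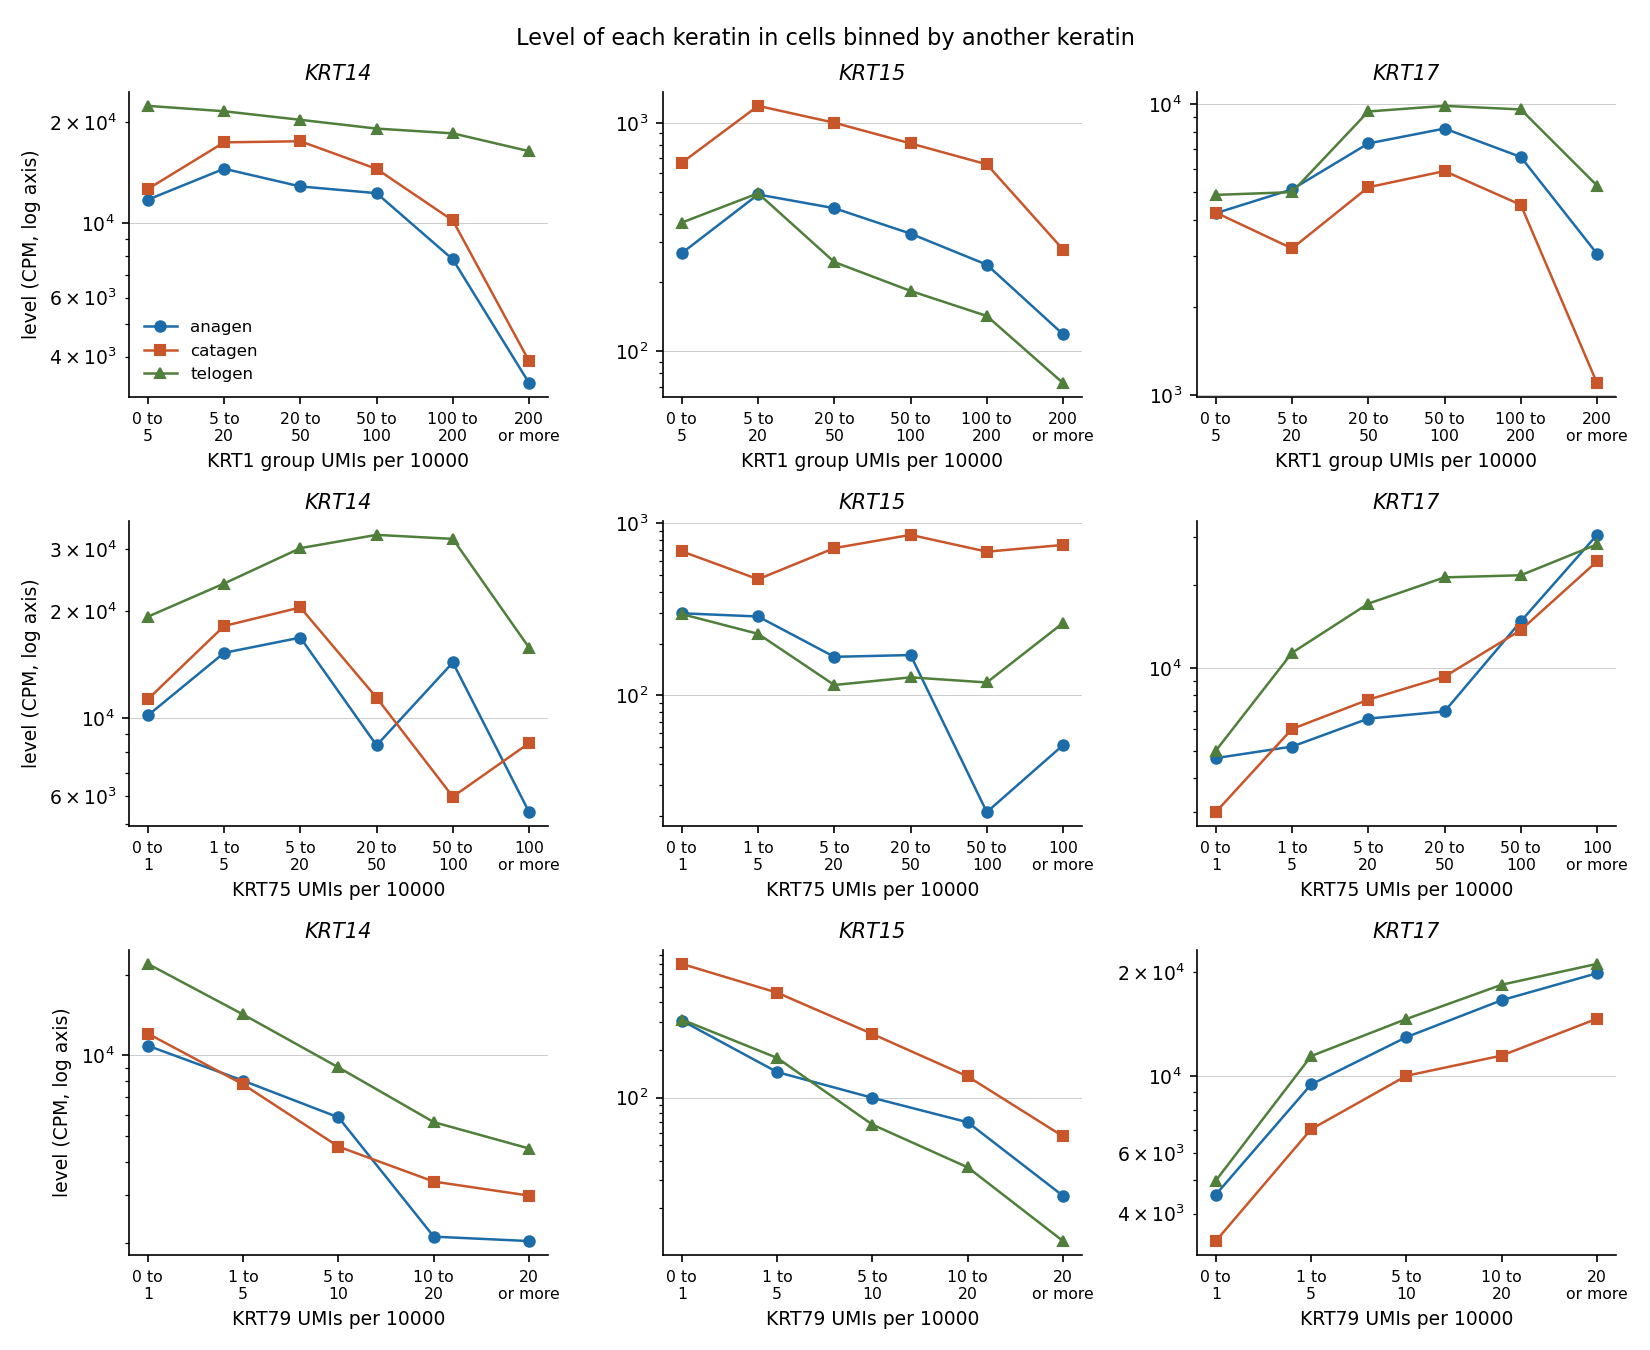
Level of each member (CPM, log axis) in all cells of each library binned by the UMIs per 10000 of *KRT1*, *KRT2*, *KRT10* and *KRT77* together (top), of *KRT75* (middle) and of *KRT79* (bottom). Over rising *KRT79*, *KRT17* was higher and *KRT14* and *KRT15* lower in every bin than in the one before, in all 3 libraries, and over rising *KRT1* group keratins *KRT17* was highest at 50 to 100 UMIs.

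Binning cells by the gate keratins showed these differences as graded. As *KRT79* went from under 1 to at least 20 UMIs per 10000, *KRT17* went from 4541 to 19862 CPM in anagen, from 3333 to 14672 CPM in catagen and from 4988 to 21144 CPM in telogen, and was higher in each bin than in the one before. *KRT15* went the other way, from 306 to 24.0 CPM, from 698 to 57.0 CPM and from 311 to 12.4 CPM, and *KRT14* from 10874 to 2027 CPM, from 12071 to 2997 CPM and from 21982.5 to 4493 CPM. The top bin held 22, 99 and 126 cells, and in it *KRT14* and *KRT15* were below the levels of endothelial-marker cells in every library.

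Over *KRT75* the same held for *KRT17* alone. It went from 4704 CPM in cells under 1 *KRT75* UMI per 10000 to 30452 CPM in the 55 anagen cells with at least 100, from 2995 to 24395 CPM in catagen (90 cells) and from 5006 to 28122 CPM in telogen (41 cells), and was higher in each bin than in the one before. *KRT14* was highest at 5 to 20 *KRT75* UMIs in anagen (16841 CPM) and catagen (20492 CPM) and at 20 to 50 in telogen (32852 CPM), and lower beyond that.

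Over the *KRT1* group, *KRT17* had a peak in the middle. Cells with 50 to 100 UMIs per 10000 of *KRT1*, *KRT2*, *KRT10* and *KRT77* had 8235 CPM of *KRT17* in anagen, 5881 CPM in catagen and 9854 CPM in telogen, the highest of 6 bins in each library, and cells with at least 200 had 3057, 1098 and 5243 CPM. *KRT15* was highest at 5 to 20 such UMIs in each library, at 485, 1186 and 491 CPM, and was 119, 279 and 72.6 CPM at 200 or more. *KRT14* was graded least in telogen, from 22398 CPM in the lowest bin to 16406 CPM in the highest, whereas the highest bin had 3336 CPM in anagen and 3879 CPM in catagen. These *KRT14* levels were below those of endothelial-marker cells, as were *KRT17* in anagen and *KRT15* in catagen and telogen in the highest bin. *KRT15* in that bin of anagen lay within the interval of endothelial-marker cells (59.6 to 124 CPM).

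To count co-detection at equal depth, 1500 UMIs were drawn from every cell. No anagen cell, 2263 catagen cells and 2932 telogen cells had fewer and were not counted. At 1 UMI or more, *KRT14* was detected in 85.5% of anagen, 82.7% of catagen and 94.6% of telogen cells, *KRT15* in 28.6%, 46.2% and 29.2% and *KRT17* in 77.4%, 49.6% and 72.8% (unthinned, *KRT14* was detected in 98.4%, 92.0% and 99.7%, *KRT15* in 47.7%, 53.5% and 43.5% and *KRT17* in 92.9%, 62.1% and 92.2%). Endothelial-marker cells had *KRT14* in 37 of 56, 7 of 14 and 21 of 33 thinned cells, *KRT17* in 51.8%, 14.3% and 54.5% and *KRT15* in 3.57%, 7.14% and 15.2%, with unthinned medians of 4039.5, 2503 and 4484 UMIs. Single UMIs of *KRT14* and *KRT17* were therefore not read as expression. The share of cells with at least 1 UMI of all 3 members was 22.8% in anagen (22.0 to 23.6), 19.6% in catagen (18.8 to 20.4) and 19.7% in telogen (19.0 to 20.5), beside 3.57%, 7.14% and 9.09% of endothelial-marker cells.

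At 3 UMIs or more *KRT15* was found almost only in cells with *KRT14*. Of all thinned cells, *KRT14* alone was the pattern of 21.8% in anagen, 34.5% in catagen and 41.1% in telogen, and *KRT14* with *KRT17* that of 41.8%, 18.6% and 39.2%. *KRT14* with *KRT15* made up 2.79%, 15.6% and 4.24%, and *KRT17* alone 10.6%, 7.91% and 6.23%. *KRT15* without either of the others was seen in 12 anagen cells, 44 catagen cells and 0 of 11570 telogen cells, which allows a share of up to 0.0259% (3 counts of the total, a limit for counting error and not an exact interval). All 3 members together were found in 2.78%, 2.85% and 1.18% of cells. Of the endothelial-marker cells, 18, 4 and 12 still had 3 *KRT14* UMIs, 13, 1 and 5 had 3 *KRT17* UMIs and at most 1 in a library had 3 *KRT15* UMIs.

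**Figure D3:**
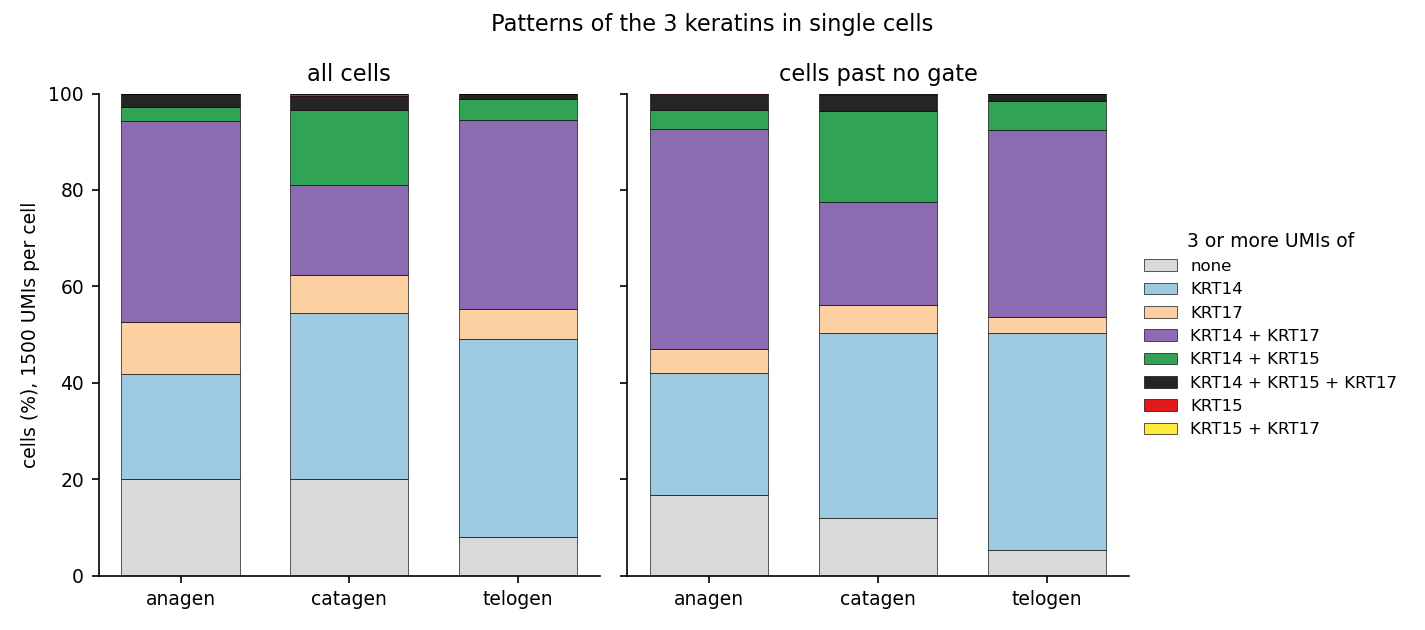
Share of cells (%) with at least 3 UMIs of none, 1, 2 or 3 of the members after thinning to 1500 UMIs per cell, in all cells (left) and in cells past no gate (right), for anagen, catagen and telogen. *KRT14* with *KRT15* was 15.6% of catagen cells against 2.79% in anagen and 4.24% in telogen, and *KRT15* without *KRT14* is barely visible.

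Among cells past no gate, 98.9% of 545 anagen, 98.5% of 1587 catagen and 564 of 564 telogen cells with at least 3 *KRT15* UMIs also had at least 3 *KRT14* UMIs, when 78.2%, 81.9% and 91.3% of all such cells did. At this limit *KRT15* and *KRT17* met less often than the product of their shares. Both were present in 3.36% of anagen, 3.49% of catagen and 1.56% of telogen cells past no gate, where the product was 3.96%, 6.89% and 3.31%. Of the cells with *KRT15*, 45.9% in anagen, 15.4% in catagen and 20.6% in telogen had *KRT17*, although 54.1%, 30.5% and 43.6% of all cells past no gate did, so the difference was smaller in anagen. At 1 UMI or more the direction turned in anagen, where 28.0% of cells had both and the product was 26.95%, and it was kept in catagen (24.3% and 28.6%) and telogen (26.7% and 29.1%). Over these cells, Pearson's r of log2 UMIs between *KRT15* and *KRT17* was −0.09, −0.29 and −0.28, and between *KRT14* and *KRT15* 0.33, 0.39 and 0.22. Between *KRT14* and *KRT17* it was 0.29, −0.08 and −0.05, so its sign differed between libraries. The values are for 7445, 7025 and 7428 cells of 1 library each at 1 depth, given as a description.

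The balance of *KRT17* and *KRT14* within a cell was taken as the *KRT17* share of their summed UMIs, in cells with at least 20 of both together. This kept 5749 of 7445, 5869 of 8672 and 7160 of 8766 cells past no gate in anagen, catagen and telogen. Of suprabasal cells it kept 2678 of 3637, 1261 of 2821 and 3715 of 5427. Cells were not thinned for this, so those kept depended on depth as well as keratin level. UMIs were not scaled by transcript length, so the share is compared between groups and not read as a ratio of the 2 proteins or transcripts. The median share in cells past no gate was 18.2% in anagen, 3.70% in catagen and 8.05% in telogen, and in suprabasal cells 47.5%, 6.12% and 23.1%. Cells past no gate with markers of the basal layer (at least 10 UMIs per 10000 of *COL17A1* and *DST*, with both present) had 11.6%, 1.89% and 4.55%. Companion cells had 85.1%, 93.0% and 55.6%, and *KRT79* cells 91.5%, 96.8% and 86.8%, which were the highest of these groups in every library.

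**Figure D4:**
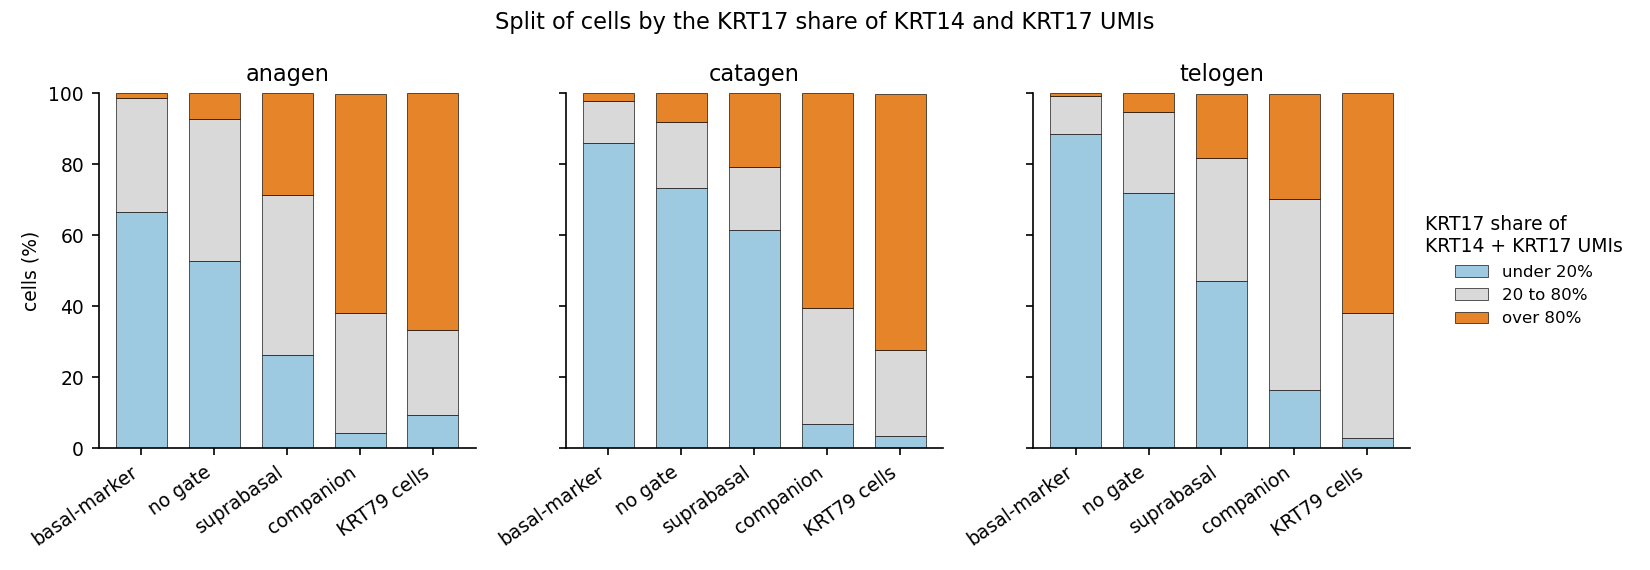
Cells (%) with a *KRT17* share of *KRT14* and *KRT17* UMIs under 20%, of 20 to 80% and over 80%, by group of cells and library, for cells with at least 20 such UMIs. Cells over 80% made up 66.7%, 72.4% and 61.8% of *KRT79* cells in anagen, catagen and telogen, and 1.30%, 2.22% and 0.694% of basal-marker cells.

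In summed levels *KRT15* was higher in basal-marker cells than in any gate, and *KRT17* lower in them than in all cells past no gate. By medians *KRT17* was lower in them in catagen (3.04 against 4.31 UMIs per 10000) and telogen (8.74 against 14.9). In anagen the median was not lower, at 21.5 against 21.0. *KRT15* was at 895 CPM in 2190 such cells of anagen, 1278 CPM in 3361 of catagen and 824 CPM in 2272 of telogen, and these cells held 44.6%, 46.5% and 43.9% of all *KRT15* UMIs. They held 11.8%, 13.0% and 4.76% of *KRT17* UMIs and 26.4%, 35.1% and 17.5% of *KRT14* UMIs, beside 14.7%, 24.7% and 15.0% of the UMIs of all genes. *KRT14* in them was at 19122, 16715 and 23759 CPM and *KRT17* at 4013, 1928 and 2025 CPM. Cells past no gate with proliferation markers (*TOP2A*, *CENPF* and *UBE2C*, at least 10 UMIs per 10000 over at least 2 of them) had less *KRT15* than all cells past no gate, at 146, 141 and 308 CPM in 798, 393 and 503 cells, and had *KRT14* at 5722, 3529 and 19966 CPM. The limits that define both groups of cells were chosen with the data known.

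The cells past no gate were then split by *KRT15* and *KRT17* themselves, at 3 UMIs after thinning. At 1 UMI or more, *KRT15* was detected in 2607 anagen, 3867 catagen and 2931 telogen cells, against 545, 1587 and 564 at 3. Most cells with any *KRT15* UMI thus counted as without it. In the same order, 13 of 56, 1 of 14 and 5 of 33 endothelial-marker cells reached 3 *KRT17* UMIs. The *KRT17* side may therefore include cells with free RNA only. Below, *KRT15* cells and *KRT17* cells are groups set by this limit and not cell types. *KRT15* without *KRT17* was found in 295 anagen, 1342 catagen and 448 telogen cells, and *KRT17* without *KRT15* in 3777, 1899 and 3121 cells. Their median depths were alike, at 4873 and 4843 UMIs in anagen, 3431 and 3780.0 in catagen and 6147.5 and 6619 in telogen. *KRT14* was close in both, at 21529.6 against 18936 CPM in anagen, 20808 against 18033 CPM in catagen and 26948 against 25268 CPM in telogen. The genes compared had at least 50 CPM in either kind of cell in all 3 libraries. Of these, 3.34% were at least 1.5-fold higher in the *KRT15* cells in all 3 libraries and 4.75% at least 1.5-fold lower.

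Genes that anchor basal cells to the basement membrane were higher in the *KRT15* cells. Of the 9 adhesion genes with a row, 7 reached 50 CPM, and 5 of these were at least 1.5-fold higher in all 3 libraries and 0 lower, with median log2 ratios of 1.23, 0.93 and 1.25 over the 7 (−0.04, −0.10 and 0.04 over all genes). *COL17A1*, the hemidesmosomal collagen, was at 928 against 284 CPM in anagen, 740.4 against 232 CPM in catagen and 753 against 159 CPM in telogen, or 3.27, 3.19 and 4.75-fold higher. *DST*, which ties keratin filaments to hemidesmosomes, was 2.48, 1.88 and 2.38-fold higher. The integrin *ITGA6* and the laminin 332 chains *LAMA3* and *LAMB3* were the others, at 2.19, 1.98 and 2.22-fold, 2.27, 2.06 and 3.02-fold and 2.76, 1.91 and 3.42-fold. *ITGB4* and *PLEC* stayed under 1.5-fold in catagen, at 1.38 and 1.29-fold.

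The follicle genes went both ways. Of 11 genes of the follicle stem cells and outer sheath with a row, 4 reached 50 CPM in either kind of cell in every library. *LGR5* reached it in anagen only, at 53.7 against 14.2 CPM, or 3.78-fold higher in the *KRT15* cells (1.23 and 1.41-fold in catagen and telogen). *TCF7L2* reached it in anagen (69.5 against 70.9 CPM) and catagen (46.6 against 83.5 CPM). *POSTN*, a matricellular protein, was higher in the *KRT15* cells, at 3368 against 1016 CPM in anagen, 2018 against 619.5 CPM in catagen and 3219 against 715 CPM in telogen. *SOX9*, a transcription factor of the outer sheath, was higher in the *KRT17* cells, at 1169 against 461 CPM, 1120.0 against 387 CPM and 566 against 247 CPM, or 2.54, 2.89 and 2.29-fold. *SPARC*, which binds collagen, was 2.79, 1.32 and 1.81-fold higher in the *KRT15* cells. *LHX2*, a transcription factor of follicle stem cells, had log2 ratios of 0.66, −1.48 and −0.64, so that the *KRT15* cells were the higher in anagen and the lower in catagen and telogen.

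**Figure D5:**
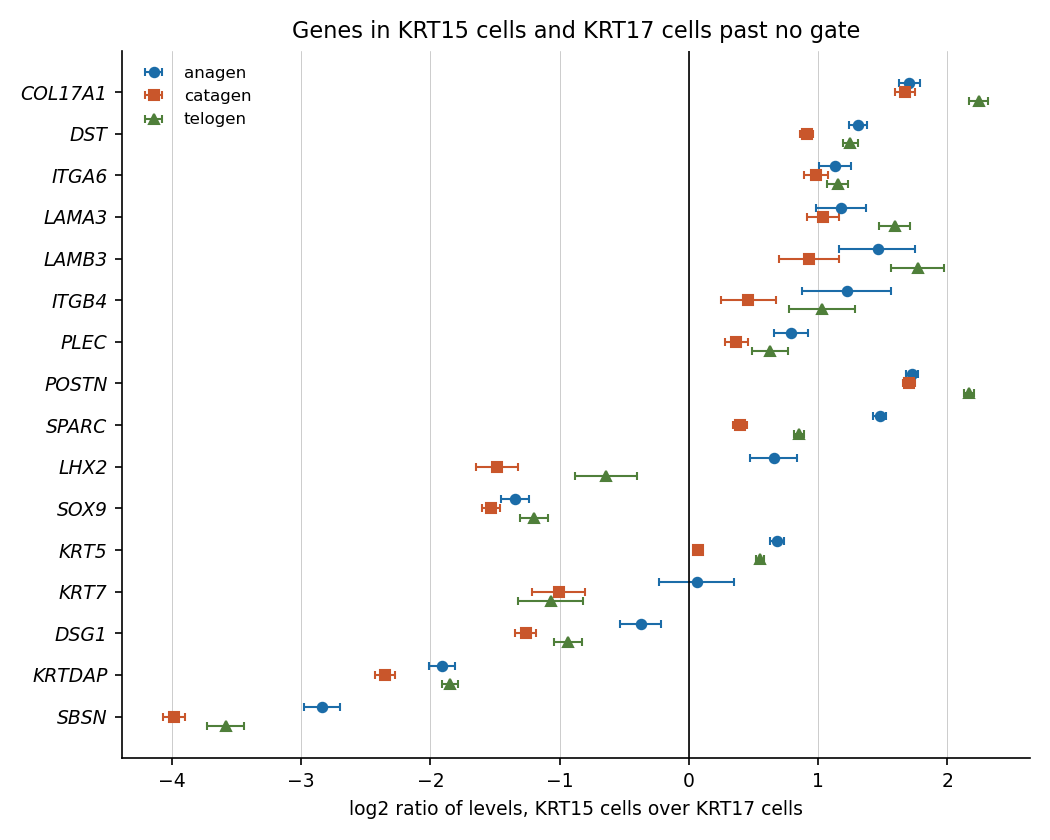
Log2 ratio of the level in cells with *KRT15* without *KRT17* over that in cells with *KRT17* without *KRT15*, among cells past no gate. Shown are genes of the adhesion, follicle and differentiation lists with at least 50 CPM in all 3 libraries, and *KRT5* and *KRT7*. Points are the libraries and bars exact 95% intervals. Adhesion genes and *POSTN* lay to the right of 0 and *SOX9*, *DSG1*, *KRTDAP* and *SBSN* to the left in all 3 libraries, and *LHX2* on both sides.

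Genes of early differentiation were higher in the *KRT17* cells. These had not passed the suprabasal gate, but could hold *KRT1* group UMIs below its limit of 50 per 10000. In the bins of all cells, *KRT17* was at 7318, 5175 and 9425 CPM at 20 to 50 such UMIs in anagen, catagen and telogen. Under 5 it was at 4214, 4234 and 4871 CPM. *SBSN*, a secreted protein of the suprabasal layers, was at 1963 against 274 CPM in anagen, 3518 against 223 CPM in catagen and 1622 against 135 CPM in telogen, or 7.16, 15.8 and 11.98-fold higher. *KRTDAP*, another, was 3.76, 5.10 and 3.59-fold higher. *DSG1*, a desmosomal cadherin, was 1.29, 2.40 and 1.91-fold higher and so missed the limit in anagen, which left 2 of the 3 at 50 CPM. Of 2 genes at this level whose proteins are known to work with keratin 17 (*SFN* and *HNRNPK*) and 2 of proliferation (*TOP2A* and *CENPF*), 0 passed in either direction. The endothelial, immune, mesenchymal and melanocyte marker lists each summed to at most 14.2 CPM in either kind of cell, and 0 of them reached 50 CPM.

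Other basal and simple keratins were compared with the members group by group. *KRT5*, the type II partner of *KRT14*, was at 1103, 1895 and 1845 CPM in cells past no gate of anagen, catagen and telogen, at 524, 783 and 1162 CPM in suprabasal cells and at 111, 92.0 and 114 CPM in inner root sheath cells. It was 1.61, 1.05 and 1.46-fold higher in the *KRT15* cells than in the *KRT17* cells. *KRT7*, a keratin of simple and glandular epithelia, went with *KRT17* in companion cells, at 309, 487 and 719.7 CPM against 60.5, 68.9 and 79.7 CPM in cells past no gate, but not in *KRT79* cells, at 35.1, 5.96 and 13.8 CPM. *KRT16*, an activation keratin, had 2, 4 and 12 UMIs in all, and *KRT18* had 9.87, 4.44 and 2.40 CPM.

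The genes most like each member were sought over 16 groups of at least 50 cells (gate by library), by Pearson's r of log2(CPM + 10) centred within library, among 2547 genes. *KRT14* was most like *KRT5* (r = 0.98), then *BARX2* (0.97), *TAX1BP3* (0.97), *PFDN5* (0.96) and *NR3C1* (0.96). For *KRT15* these were *PPP2R3A* (0.94), *NTAN1* (0.93), *DDAH2* (0.93), *BARX2* (0.93) and *NR3C1* (0.92), and for *KRT17* *SOX9* (0.98), *KDELR3* (0.97), *MDFIC* (0.97), *PYGL* (0.97) and *CCN3* (0.97). Between members r was 0.91 for *KRT14* and *KRT15*, 0.88 for *KRT14* and *KRT17* and 0.74 for *KRT15* and *KRT17*. The groups include the inner root sheath and cortex cells of each library, from whose levels no expression was read. Over single cells past no gate, r between *KRT15* and *KRT17* was below 0, at −0.09, −0.29 and −0.28 in anagen, catagen and telogen. The groups share libraries, and the values over groups are a description of the order of likeness only.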

How the data were processed

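The authors deposited raw counts, whole numbers of UMIs per gene and cell, as Cell Ranger wrote them. File headers name version 4.0.0 (anagen), 3.1.0 (catagen) and 6.0.2 (telogen), and the submitters' processing notes 2.1.1. Cells with at least 200 genes were kept. UMIs were summed per group of cells and given as CPM, with exact Poisson, conditional binomial and Clopper-Pearson intervals at 95%. UMIs come from PCR-amplified 3′ libraries, and intervals cover counting error only. Doublets were left in: Scrublet (scanpy 1.11.5) called 0 cells in each library, so its threshold had not worked, and its 600, 544 and 724 highest scores were left out as an alternative. Thinning used a fixed seed of 7. Python 3.11.15, numpy 2.4.6, scipy 1.17.1 and pandas 2.3.3 were used, and the scripts were tested on simulated data.

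The members and lists were chosen with earlier results of these data known. Genes were named by rule: the members, related keratins with a row, the 5 genes most like each member among those with at least 50 CPM in some group, and list genes past 1.5-fold in all libraries. *SPARC*, *LHX2*, *LGR5*, *TCF7L2*, *DSG1*, *ITGB4* and *PLEC* fell outside it and were chosen after their values were seen. *KRT6A*, *KRT6B*, *KRT6C*, *KRT19*, *KRT8*, *KRT31*, *KRT33A*, *KRT33B*, *KRT74*, *KRT81*, *KRT83*, *KRT86*, *ITGB1*, *CD200*, *CALML5*, *IVL*, *LOR*, *FLG*, *MKI67*, *CD3E*, *TYROBP*, *COL1A1*, *DCT* and *TYR* had no row by symbol and were not analysed here. No sequence is printed, since none was given for these genes.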

Additional observations from a re-analysis of the deposited data

Results flagged for a closer look

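*KRT17* in suprabasal cells relative to cells past no gate differed in direction between libraries. The log2 ratio was 0.04 in anagen (0.03 to 0.05), −0.69 in catagen (−0.70 to −0.67) and 0.41 in telogen (0.40 to 0.41). With 1 library per stage the difference between them was not tested. *KRT79* cells, high in *KRT17*, were 508 of 5427 suprabasal cells in telogen, 137 of 3637 in anagen and 150 of 2821 in catagen, and without them the ratios were −0.08 in anagen, −1.05 in catagen and 0.01 in telogen. By medians without them, suprabasal cells had 29.0, 1.94 and 24.0 UMIs per 10000 in anagen, catagen and telogen. Cells past no gate had 21.0, 4.31 and 14.9.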

How the results depend on the processing

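Ratios are log2, in the order *KRT14*, *KRT15*, *KRT17*. Catagen over anagen (0.15, 1.21 and −0.45) was 0.029, 0.98 and −0.37 for cells with at least 1000 genes, −0.11, 0.95 and −0.70 under median-of-ratios scaling, and 0.072, 1.13 and −0.57 at mean gate shares. It was 1.15 for *KRT15* and −0.41 for *KRT17* at the smallest anagen total of 2404 UMIs, 0.10 for *KRT14* and −0.61 for *KRT17* as a mean over cells, and 0.17, 1.25 and −0.43 without the highest Scrublet scores. Telogen over anagen (0.94, −0.06 and 0.35) was 1.18, 0.18 and 0.60 under median-of-ratios scaling, 0.68, −0.16 and 0.062 as a mean over cells, 0.95, −0.037 and 0.36 without the highest Scrublet scores, and 0.87, −0.10 and 0.28 at mean gate shares. For *KRT14* and *KRT17* it was 0.96 and 0.39 with at least 1000 genes and 0.96 and 0.37 at the smallest anagen total. Telogen over catagen (0.79, −1.27 and 0.80) was 0.93, −1.04 and 0.75 with at least 1000 genes, 0.81, −1.20 and 0.78 at the smallest anagen total, 1.29, −0.77 and 1.30 under median-of-ratios scaling, 0.57, −1.38 and 0.67 as a mean over cells, 0.80, −1.23 and 0.85 at mean gate shares, and 0.79 for *KRT17* without the highest Scrublet scores. The sign thus turned for *KRT14* (catagen over anagen) and *KRT15* (telogen over anagen), both under median-of-ratios scaling.

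The share of cells with all 3 members in anagen, catagen and telogen was 34.6%, 27.5% and 33.3% thinned to 3000 UMIs, 45.1%, 31.4% and 40.3% without thinning, 2.78%, 2.85% and 1.18% at 3 UMIs, and 22.0% in anagen without the highest Scrublet scores. *KRT17* in suprabasal cells over cells past no gate turned to −0.85 in anagen and −0.36 in telogen at a gate of 200 per 10000. That gate also set the cells past no gate anew. Without *KRT79* cells the ratio turned to −0.079 in anagen. The causes were not tested. Counts of contrasts stayed within 1.5 times of those reported, and the *KRT15* count rose from 8 to 12 of 12 by medians over cells. At a gate of 200 per 10000 the counts were 6, 7 and 5, but of 7 contrasts and not 12. Mean gate shares, medians over cells, the *KRT79*, *KRT5* and *KRT15* splits and the suprabasal cells without *KRT79* were chosen after seeing the data. No paired analysis was possible because each stage had 1 library. With no replicate, spread between animals is unknown.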
